A study of Mus musculus with 24 samples.

Results

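Untreated eosinophils of genotype CSF2ra-/- were compared with untreated WT eosinophils over all measured genes, in 3 libraries of each genotype, 6 of the 24 libraries sequenced. Both groups carried the same handling. Bone marrow of C57BL/6 mice received SCF and FLT3-L, 100 ng/ml of either, for the first 4 days and then IL-5 at 10 ng/ml, dead cells were removed on day 13, and the cells then stood overnight in IL-5 with no other cytokine added. The allele is labelled CSF2ra-/- with no account of how it was made, and age and sex are not given. The libraries were called triplicates, and nothing says whether each came from its own mouse or its own culture. Tests used the spread within all 8 groups of the 24 libraries, not that of the 6 compared alone. That spread may be technical. Libraries with GM-CSF at 20 ng/ml, again 3 of each genotype, and WT libraries with IL-10 are used below as sets that share no library with this comparison.

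Eosinophils are granulocytes of the type 2 immune response that carry cytotoxic proteins in their granules and depend on IL-5 for growth and survival. The receptors for IL-5, GM-CSF and IL-3 each pair their own alpha chain with a shared beta chain, which signals through JAK2 and STAT5. Csf2ra encodes the alpha chain that binds GM-CSF. GM-CSF is also a growth and maturation factor of macrophages and dendritic cells, for which C1q, the mannose receptor and MHC class II are common markers. The cultures were given no GM-CSF, so the comparison asks which transcripts differed between the genotypes when none was supplied.

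Low-abundance transcripts of macrophages and antigen-presenting cells were among the larger falls in CSF2ra-/- cultures. C1q, mannose receptor, arginase 1, CCR2, CD36, matrix metalloproteinase and part of the MHC class II transcripts fell. Log2 fold changes ran from -4.21 for C1qc to -0.96 for the class II accessory gene H2-DMa. The C1q, mannose receptor and arginase 1 calls were lost when certain single libraries were left out. The class II gene H2-Ab1 did not pass. Cell cycle and DNA replication transcripts were higher, by smaller amounts. A list of granule protein and other genes moved both ways. Of its 10 tested members 2 were higher, the granule proteins Epx and Prg3. The 3 lower members (Chil3, Alox15 and S100a9) were among the other genes. Of 11885 tested genes, 1288 passed the test at an adjusted p under 0.05, which is 10.8% of those tested. Higher were 656 genes (5.52%) and lower were 632 (5.32%). Falls were the larger changes: 280 genes were lower by at least 2-fold and 57 higher by at least 2-fold, while the median log2 fold change over all tested genes was 0.003. The genes lower by at least 2-fold were mostly weakly expressed, with a median of 4.29 CPM in their higher group, against 26.9 CPM over all tested genes. CPM here is the read count of a gene scaled to library size by TMM normalization, and fold changes are log2 of CSF2ra-/- over WT with their standard error. Groups that did not overlap (every library of one genotype beyond every library of the other) were found at 21.1% of tested genes, 10.3% higher and 10.9% lower.

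The number of genes that passed depended on single libraries and on which libraries entered the fit. Without CSF2ra-/- replicate 1 it was 359, without CSF2ra-/- replicate 2 it was 2620 and without WT replicate 2 it was 291. Without WT replicate 3 it was 520, and a fit of the 6 libraries alone gave 199. Passing with each of the 6 libraries left out in turn were 244 genes, 72 higher and 172 lower. Total counts were 8637672 to 17149887 in CSF2ra-/- libraries and 11881294 to 15069328 in WT libraries, and CSF2ra-/- replicate 1 was the shallowest. Over 9397 genes, the Pearson correlations of library deviations from the mean of all libraries were 0.189, 0.357 and -0.189 between CSF2ra-/- replicates 1 and 2, 1 and 3, and 2 and 3, and 0.298, 0.117 and 0.695 between the same pairs of WT replicates, a description across genes that are not independent. The summed level of 4 Y-linked genes was 162, 181 and 165 CPM in CSF2ra-/- libraries, against 175, 56.9 and 50.7 CPM in WT libraries, so only WT replicate 1 lay near the CSF2ra-/- sums. When that sum entered the fit as a covariate, 764 genes passed. In a comparison chosen after the data had been seen, the WT libraries with low sums were left out (untreated replicates 2 and 3, and 1 WT library with GM-CSF), and the lone untreated WT library was assumed to vary like the other groups. Then 91 genes passed, 9 higher and 82 lower. Csf2ra kept its direction (log2 fold change -0.72 ± 0.21, SE) but not its call (adjusted p = 0.161). With 1 WT library, fewer samples were compared.

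Csf2ra itself (ENSMUSG00000059326, GRCm38 chromosome 19, from position 61223957) was lower in CSF2ra-/- cells but not absent. Its level was 29.9, 28.5 and 38.4 CPM in CSF2ra-/- libraries, against 53.4, 56.5 and 59.2 CPM in WT libraries. All 3 CSF2ra-/- libraries lay below all 3 WT libraries (log2 fold change -0.80 ± 0.14, adjusted p = 0.00171). Exons were not resolved, and whether the remaining transcript could encode a working chain was not tested. When GM-CSF was added to CSF2ra-/- cells, edgeR called 0 genes against untreated CSF2ra-/- cells, with 531 at an unadjusted p under 0.05 and 0 by DESeq2 and by limma-voom. In WT cells edgeR called 66 (0.555% of those tested; 0.412% higher and 0.143% lower), DESeq2 112 and limma-voom 70. These comparisons share their untreated libraries with the genotype comparison.

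Csf2rb, the shared beta chain, stood at 2403, 3463 and 2659.8 CPM in CSF2ra-/- libraries, against 3397, 4062 and 3600.1 CPM in WT libraries (log2 fold change -0.38 ± 0.14, adjusted p = 0.0737). Its near-identical neighbour Csf2rb2, the mouse beta chain specific for IL-3, had a log2 fold change of -0.37 ± 0.15 (adjusted p = 0.11), and reads of this pair may have been divided between them. For Il5ra, the alpha chain through which the culture cytokine acts, levels were 91.3, 118 and 59.9 CPM in CSF2ra-/- libraries, against 70.2, 60.3 and 49.4 CPM in WT libraries. The groups overlapped and Il5ra did not pass (log2 fold change 0.58 ± 0.24, adjusted p = 0.125), and neither did the IL-3 alpha chain Il3ra, at 0.22 ± 0.17 (adjusted p = 0.43). The ligand genes Csf2, Il3 and Il5 were too weak to be tested, leaving 1 of 5 tested receptor genes, Csf2ra, past the threshold. Without CSF2ra-/- replicate 2 there were 3 lower receptor genes, and without CSF2ra-/- replicate 3 there was 1 higher as well.

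**Figure D1:**
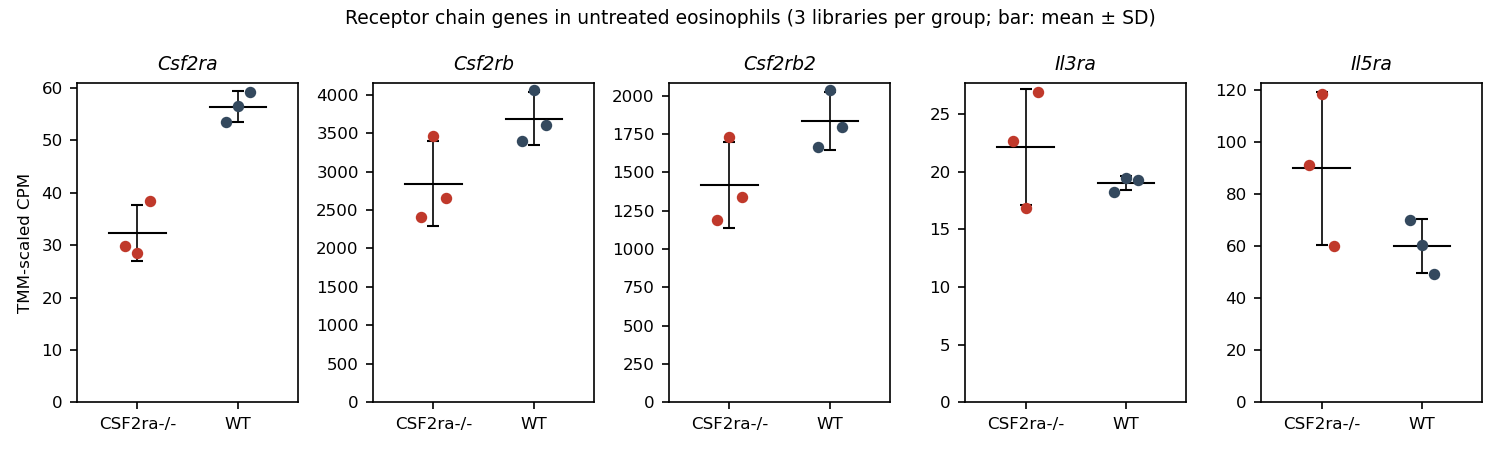
TMM-scaled CPM (vertical axis, from 0) of 5 receptor chain genes in 3 untreated CSF2ra-/- libraries (left) and 3 untreated WT libraries (right), each point a library, with the mean and SD. Only Csf2ra separated the groups, with 28.5 to 38.4 CPM in CSF2ra-/- and 53.4 to 59.2 CPM in WT.

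JAK and STAT pathway genes serve this receptor and others. Of the 18 tested, 3 were lower, against 5.32% of all tested genes, and 0 higher (median log2 fold change -0.21). They were Stat5b, which with Stat5a is activated by these receptors, at -0.49 ± 0.13 (adjusted p = 0.0188), Stat6, the IL-4 and IL-13 factor, at -0.43 ± 0.11 (adjusted p = 0.0162), and the adaptor Gab2 at -0.46 ± 0.14 (adjusted p = 0.0397). None of these 3 passed with every library left out in turn, and the number of lower genes was 0 without CSF2ra-/- replicate 1, WT replicate 2 or WT replicate 3 and 6 without CSF2ra-/- replicate 2. Of the 8 SOCS and CISH inhibitors, which STAT proteins induce, edgeR, DESeq2 and limma-voom called 0, and 2 had an unadjusted p under 0.05, Socs2 (adjusted p = 0.105) and Socs3 (adjusted p = 0.177); without CSF2ra-/- replicate 2, 1 was higher and 2 lower. Of 20 known STAT5 target genes 2 were lower, against the same 5.32% of all tested genes. Cyclin D1 (Ccnd1) had 4.44, 2.89 and 2.66 CPM in CSF2ra-/- libraries, against 14.8, 15.4 and 13.5 CPM in WT libraries, and the repressor Bcl6 had a log2 fold change of -0.85 ± 0.17 (adjusted p = 0.00463). Both kept their call with each library left out.

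Monocyte and macrophage markers had the largest share of lower genes among the lists with at least 8 tested members. Of 15 tested markers 10 were lower and 0 higher, against 5.32% of all tested genes lower, and the median log2 fold change was -2.12. Mrc1, the mannose receptor of tissue macrophages, had 2.34, 2.59 and 3.08 CPM in CSF2ra-/- libraries, against 15.7, 22.6 and 23.1 CPM in WT libraries. The WT libraries were all at least 5 times above the highest CSF2ra-/- library in Mrc1 (log2 fold change -2.91 ± 0.79, adjusted p = 0.0264). The complement chain C1qb had 1.48, 1.00 and 0.532 CPM in CSF2ra-/- libraries, against 5.16, 10.9 and 9.95 CPM in WT libraries (log2 fold change -3.20 ± 0.83, adjusted p = 0.021), and its partner C1qc had 0.493, 0.0589 and 0.414 CPM in CSF2ra-/- libraries, against 2.61, 7.41 and 6.65 CPM in WT libraries (log2 fold change -4.21 ± 0.98, adjusted p = 0.0123). In both C1q genes WT replicate 1 was the lowest WT library and still above every CSF2ra-/- library. The chemokine receptor Ccr2, which draws monocytes out of the marrow, had 7.03, 6.36 and 4.79 CPM in CSF2ra-/- libraries, against 27.8, 25.7 and 24.5 CPM in WT libraries (log2 fold change -2.12 ± 0.28, adjusted p = 0.000121). The lysosomal glycoprotein Cd68 was at -1.09 ± 0.19 (adjusted p = 0.00138).

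Not all markers of this lineage moved. Ly6c2, the classical monocyte antigen and the most abundant marker on the list, had 1915, 1467 and 1345 CPM in CSF2ra-/- libraries, against 1298, 1232 and 1339 CPM in WT libraries (log2 fold change 0.29 ± 0.10, adjusted p = 0.0751), with the groups just apart. Csf1r, the receptor for macrophage colony-stimulating factor, had 144, 122 and 102 CPM in CSF2ra-/- libraries, against 138, 166 and 171 CPM in WT libraries (log2 fold change -0.37 ± 0.15, adjusted p = 0.112). Neither passed. The other 14 markers without Ly6c2 summed to 198.9, 176.9 and 166.3 CPM in CSF2ra-/- libraries, against 291, 329 and 331 CPM in WT libraries, and 0 of the 15 were without counts in all 6 libraries. In bulk RNA fewer cells of a type and less RNA of these genes per cell cannot be told apart. The number of lower markers was 3 without WT replicate 2, 5 without CSF2ra-/- replicate 1 or without WT replicate 3, and 7 with the Y-linked covariate. Against WT replicate 1 alone it was 1, with a median of -2.33. Ccr2 and Cd68 passed with each library left out. In edgeR, Mrc1 lost its call without CSF2ra-/- replicate 1 or 2 or WT replicate 2 or 3 (adjusted p of 0.0514 to 0.0998). By limma-voom Mrc1 did not pass either (adjusted p = 0.0548). C1qb lost its call without CSF2ra-/- replicate 1 or 3 or WT replicate 2 or 3 (edgeR, adjusted p of 0.0569 to 0.0882). C1qc lost its call without WT replicate 2 (edgeR, adjusted p = 0.0559).

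Genes of alternative macrophage activation and of matrix breakdown fell with them. Of 21 tested, 10 were lower and 0 higher, with a median log2 fold change of -0.88. Arginase 1 (Arg1), which consumes arginine, had 4.19, 4.01 and 9.88 CPM in CSF2ra-/- libraries, against 34, 68.5 and 66.2 CPM in WT libraries (log2 fold change -3.17 ± 0.93, adjusted p = 0.0369). WT replicate 1 was the lowest WT library in Arg1, and the call was lost without either of CSF2ra-/- replicates 1 and 2 or WT replicates 2 and 3 (adjusted p of 0.0798 to 0.14). The macrophage elastase Mmp12 had 50.2, 32.3 and 39.7 CPM in CSF2ra-/- libraries, against 155, 118 and 117 CPM in WT libraries (log2 fold change -1.68 ± 0.27, adjusted p = 0.000789), and the gelatinase Mmp9 had 10.4, 8.30 and 11.2 CPM in CSF2ra-/- libraries, against 27.1, 20.9 and 23.4 CPM in WT libraries (log2 fold change -1.26 ± 0.16, adjusted p = 9.35e-05). The groups did not overlap in either metalloproteinase. The growth factor Igf1 had 3.70, 3.00 and 4.08 CPM in CSF2ra-/- libraries, against 17.2, 20.5 and 19.3 CPM in WT libraries (log2 fold change -2.40 ± 0.35, adjusted p = 0.000265). The matrix protein thrombospondin 1 (Thbs1), abundant in these cells, had 1371, 2090.3 and 1232 CPM in CSF2ra-/- libraries, against 2847, 3182 and 2586 CPM in WT libraries (log2 fold change -0.88 ± 0.16, adjusted p = 0.00199). Lectin genes of the same list, Mgl2 at -1.91 ± 0.51 (adjusted p = 0.0259) and Clec10a at -1.93 ± 0.54 (adjusted p = 0.0296), were lower as well. The list held 6 to 10 lower genes with 1 library left out, and 4 against WT replicate 1 alone (median -0.85).

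Part of the MHC class II genes, which display peptides to helper T cells, were lower in CSF2ra-/- cells. Of 15 MHC class II and antigen presentation genes 6 were lower and 0 higher, with a median of -0.89. H2-Aa, the alpha chain of the I-A molecule, had 22.5, 16.7 and 22.3 CPM in CSF2ra-/- libraries, against 77, 81.1 and 74.3 CPM in WT libraries (log2 fold change -1.93 ± 0.43, adjusted p = 0.00988). Cd74, the invariant chain that guides class II assembly, had 89.6, 53.3 and 66.8 CPM in CSF2ra-/- libraries, against 231, 239.7 and 242 CPM in WT libraries (log2 fold change -1.77 ± 0.38, adjusted p = 0.00753). Ciita, the transactivator that switches on class II genes, had 0.864, 1.53 and 0.769 CPM in CSF2ra-/- libraries, against 5.29, 5.94 and 3.66 CPM in WT libraries (log2 fold change -2.18 ± 0.46, adjusted p = 0.00626). In each of the 3 the highest CSF2ra-/- library lay below the lowest WT library by at least 2-fold. H2-Eb1 at -1.88 ± 0.49 (adjusted p = 0.0205), H2-DMa at -0.96 ± 0.29 (adjusted p = 0.0397) and the peptide-processing protease cathepsin S (Ctss) at -1.68 ± 0.35 (adjusted p = 0.00612) also passed. H2-Ab1, the beta chain partner of H2-Aa, did not: it had 52.2, 33.3 and 116 CPM in CSF2ra-/- libraries, against 99.3, 122 and 126 CPM in WT libraries, and CSF2ra-/- replicate 3 lay within the WT range (log2 fold change -0.78 ± 0.49, adjusted p = 0.313). H2-Aa, Cd74, Ciita and Ctss passed with each library left out. Against WT replicate 1 alone edgeR called 0 of the 15, with a median of -0.93.

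The promoters of 2 of these genes are shown because class II genes share a control element upstream of the start, the W-X-Y module, whose Y box holds the CCAAT sequence bound by NF-Y. The 250 bases before the RefSeq transcription start are printed 5′ to 3′ on the gene's strand (GRCm38.p6), with CCAAT or its reverse complement ATTGG in capitals. H2-Aa lies at chr17:34287824-34288073, minus strand, and H2-Eb1 at chr17:34305617-34305866, plus strand.
H2-Aa: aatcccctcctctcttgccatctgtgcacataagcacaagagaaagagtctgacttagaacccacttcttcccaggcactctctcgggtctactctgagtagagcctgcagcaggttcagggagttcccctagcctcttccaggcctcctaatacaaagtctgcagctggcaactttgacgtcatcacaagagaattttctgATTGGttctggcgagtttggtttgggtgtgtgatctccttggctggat
H2-Eb1: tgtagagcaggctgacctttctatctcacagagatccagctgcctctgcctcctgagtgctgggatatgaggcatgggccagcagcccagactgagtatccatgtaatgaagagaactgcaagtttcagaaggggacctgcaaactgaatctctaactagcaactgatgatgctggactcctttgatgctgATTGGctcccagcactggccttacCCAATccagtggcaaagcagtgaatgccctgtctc
H2-Aa held 1 such match and H2-Eb1 held 2. Of the 15 listed genes 10 had a promoter entry. Over the list, 7 of 11 promoters held CCAAT on either strand, and 33.8% of all 32851 promoters of the same length did. The longer form CTGATTGG contains ATTGG and is present in both promoters printed. It was found in 3 of 11, and in 3.83% of all. It is not particular to these genes, since 4 of 23 promoters of the cell cycle list held it too. In the monocyte and macrophage list 0 of 15 held it. A match is a description of these letters only.

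Receptors of innate recognition and of cytokines were also lower. Of 26 pattern recognition and Fc receptor genes 11 were lower and 0 higher, with a median of -0.48. The C-type lectin Clec4d, a receptor for fungal and mycobacterial glycolipids, had 3.82, 3.12 and 4.97 CPM in CSF2ra-/- libraries, against 12, 11.2 and 11.1 CPM in WT libraries (log2 fold change -1.52 ± 0.20, adjusted p = 9.35e-05). Clec7a (dectin-1, the beta-glucan receptor) was at -0.86 ± 0.14 (adjusted p = 0.000944), Tlr2 at -1.0 ± 0.22 (adjusted p = 0.00671) and the RNA sensor Tlr7 at -2.09 ± 0.31 (adjusted p = 0.000332). Of 27 other cytokine receptors 10 were lower and 0 higher, with a median of -0.44. Il6st, the shared signalling chain of the IL-6 family, had 1.36, 2.94 and 2.07 CPM in CSF2ra-/- libraries, against 12, 12 and 8.90 CPM in WT libraries (log2 fold change -2.30 ± 0.37, adjusted p = 0.000765), and Il6ra, the IL-6 binding chain, had 0.987, 1.30 and 1.48 CPM in CSF2ra-/- libraries, against 5.95, 4.22 and 4.41 CPM in WT libraries (log2 fold change -1.91 ± 0.27, adjusted p = 0.000186). The 3 libraries of each group did not overlap in either. The G-CSF receptor Csf3r at -1.30 ± 0.21 (adjusted p = 0.000768) and the IL-7 receptor Il7r at -1.57 ± 0.25 (adjusted p = 0.000581) were lower too. With 1 library left out the pattern receptor list held 6 to 12 lower genes and the cytokine receptor list 5 to 11; against WT replicate 1 alone they held 6 and 5.

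Part of the scavenger and lipid genes were lower. For comparison, 5.32% of all tested genes were lower and 5.52% higher. Of 20 genes of lipid uptake, storage and efflux 6 were lower and 0 higher (median -0.37). Cd36, a scavenger receptor for oxidised lipoproteins, had 13, 13.4 and 10.6 CPM in CSF2ra-/- libraries, against 45.7, 61.3 and 57.4 CPM in WT libraries (log2 fold change -2.15 ± 0.29, adjusted p = 0.000177), and lipoprotein lipase (Lpl) had 51.2, 32.4 and 35.7 CPM in CSF2ra-/- libraries, against 155, 111 and 119 CPM in WT libraries (log2 fold change -1.70 ± 0.25, adjusted p = 0.000357). The number of lower genes was 2 without CSF2ra-/- replicate 1 and 3 without WT replicate 2, and Cd36 and Lpl passed with each library left out. Of 11 phagocytosis genes 3 were lower, among them the scavenger receptor Msr1 at -2.79 ± 0.62 (adjusted p = 0.00879) and the receptor kinase Axl at -1.57 ± 0.37 (adjusted p = 0.0118), and 1 was higher, its relative Tyro3, at 0.67 ± 0.21 (adjusted p = 0.0442). Of 12 genes known to depend on GM-CSF in alveolar macrophages 2 were lower, the integrin Itgax at -0.87 ± 0.12 (adjusted p = 0.000148) and the repressor Bhlhe41 at -2.24 ± 0.53 (adjusted p = 0.0121), with a median of -0.19. Pparg, the transcription factor that GM-CSF induces in alveolar macrophages, had a log2 fold change of -0.61 ± 0.24 (adjusted p = 0.099).

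Part of the chemokine genes were lower in CSF2ra-/- cells. Of 12 tested chemokine genes 6 were lower and 0 higher, with a median of -1.06. Their number was 2 without WT replicate 3 and 3 or 4 with any other library left out, and against WT replicate 1 alone edgeR called 0 (median -1.09). Summed over the list, chemokine levels overlapped between the groups, at 6603, 5166 and 5219 CPM in CSF2ra-/- libraries, against 5360.4, 5773 and 6699.6 CPM in WT libraries. Ccl9, the most abundant of the 6, had 54.4, 41.6 and 41.4 CPM in CSF2ra-/- libraries, against 80.4, 114 and 133 CPM in WT libraries (log2 fold change -1.26 ± 0.24, adjusted p = 0.00331), and it alone of the 6 passed with each library left out. Ccl2, which binds CCR2, had 2.71, 3.12 and 2.42 CPM in CSF2ra-/- libraries, against 7.97, 8.78 and 11.1 CPM in WT libraries (log2 fold change -1.74 ± 0.41, adjusted p = 0.0123). Ccl22, a ligand of CCR4, had 22, 11.7 and 19.2 CPM in CSF2ra-/- libraries, against 61.9, 29.7 and 28.4 CPM in WT libraries (log2 fold change -1.21 ± 0.36, adjusted p = 0.0404), and WT replicate 1 stood well above the other WT libraries. Among 20 chemoattractant receptors 6 were lower and 2 higher. Ccr3, the eotaxin receptor that directs eosinophils into tissue, had 231, 236 and 182 CPM in CSF2ra-/- libraries, against 285, 396 and 379.8 CPM in WT libraries (log2 fold change -0.71 ± 0.18, adjusted p = 0.0175), and the complement receptor C5ar1 was at -1.66 ± 0.26 (adjusted p = 0.000471). Ffar2, a receptor for short-chain fatty acids, was higher at 0.54 ± 0.12 (adjusted p = 0.00661).

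**Figure D2:**
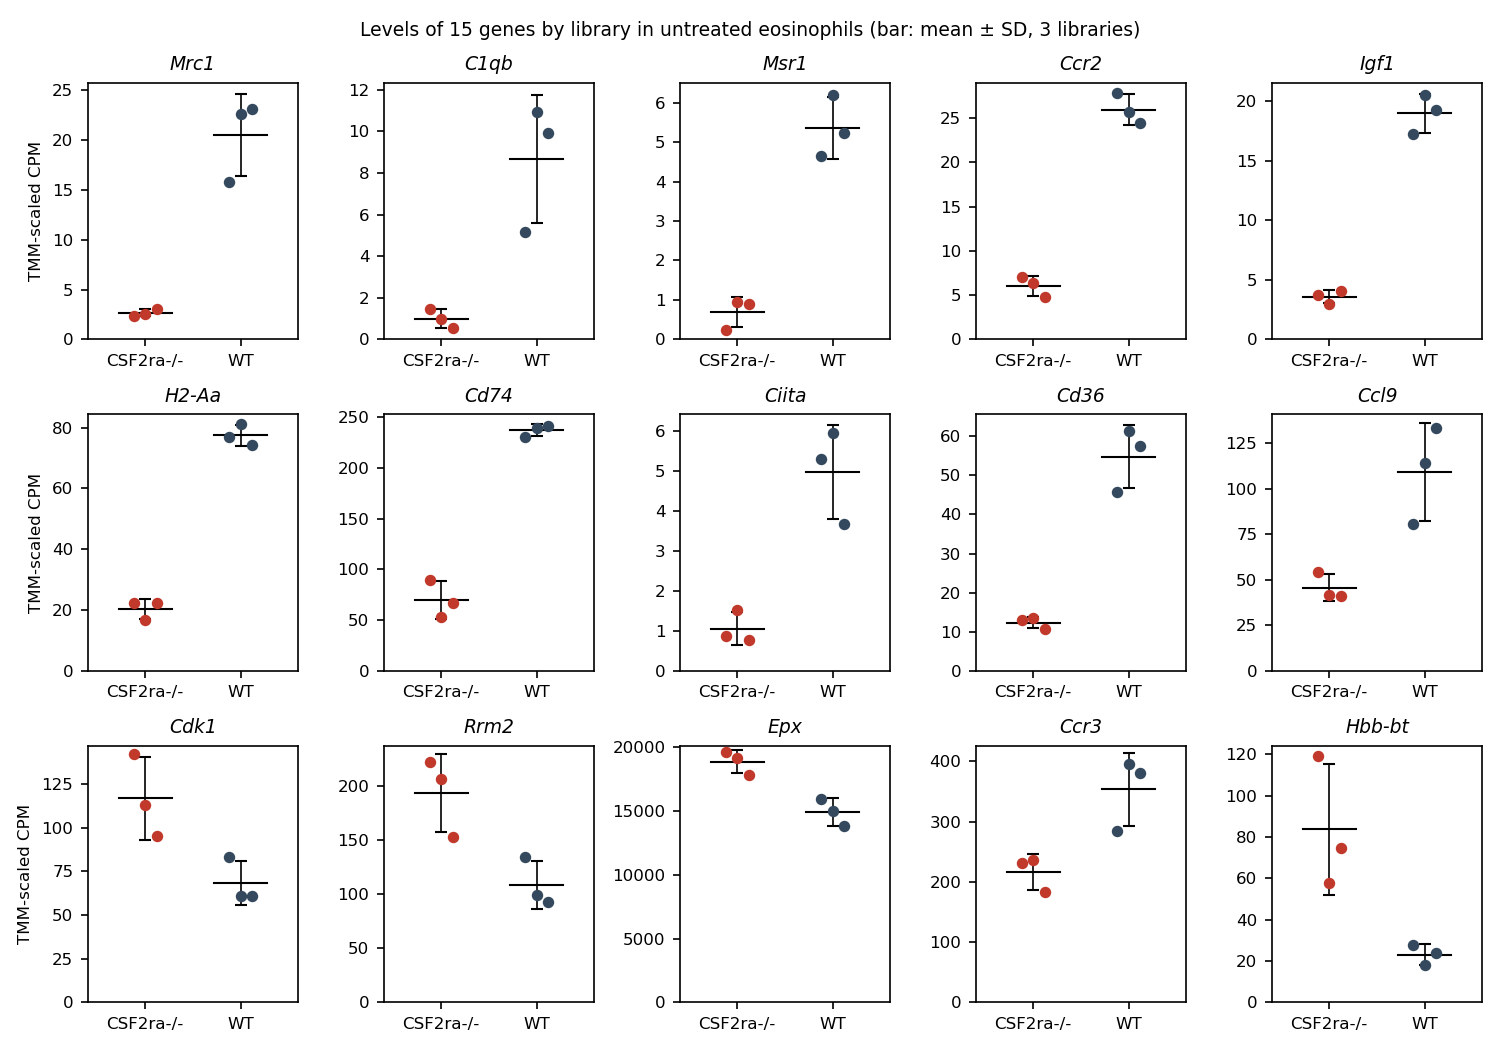
TMM-scaled CPM (vertical axes, from 0) of 15 genes in 3 untreated CSF2ra-/- libraries (left) and 3 untreated WT libraries (right), each point a library, with the mean and SD. The CSF2ra-/- libraries lie below all WT libraries in the first 10 genes and in Ccr3, and above them in Cdk1, Rrm2, Epx and Hbb-bt.

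Eosinophil markers were abundant in both genotypes and changed in part. The counts below stand against 5.52% of all tested genes higher and 5.32% lower. Prg2, the granule major basic protein, had 65228, 40974 and 45502 CPM in CSF2ra-/- libraries, against 42929, 40320.0 and 45566 CPM in WT libraries (log2 fold change 0.24 ± 0.12, adjusted p = 0.204). Epx, eosinophil peroxidase, was slightly higher, at 19630.0, 19168 and 17844 CPM in CSF2ra-/- libraries, against 15978, 15032 and 13803 CPM in WT libraries (log2 fold change 0.34 ± 0.10, adjusted p = 0.0306), and Prg3, a homologue of Prg2, had a log2 fold change of 0.46 ± 0.13 (adjusted p = 0.0276). The defining surface lectin Siglecf, at 397, 450.3 and 294 CPM in CSF2ra-/- libraries, against 338, 365 and 317 CPM in WT libraries, overlapped between the groups (log2 fold change 0.16 ± 0.18, adjusted p = 0.586). Alox15, the 15-lipoxygenase of eosinophils, was lower at 1921, 2139 and 2238 CPM in CSF2ra-/- libraries, against 2671, 3523 and 3387 CPM in WT libraries (log2 fold change -0.61 ± 0.12, adjusted p = 0.00289). Of the 10 eosinophil markers 2 were thus higher (Epx and Prg3) and 2 lower (Ccr3 and Alox15), and of 16 lineage transcription factors 1 was lower, Irf8 at -1.25 ± 0.36 (adjusted p = 0.0334), with Gata1, the factor that specifies the lineage, at 0.12 ± 0.10 (adjusted p = 0.453). Irf8 did not pass in a single leave-one-out fit, and 3 factors were higher without CSF2ra-/- replicate 2. On a longer list of granule protein and other genes, 2 of 10 were higher, the granule proteins Prg3 and Epx. The 3 lower ones (Chil3, Alox15 and S100a9) were among its other genes. Of 15 surface genes 1 was higher (Cd69) and 3 lower (Ccr3, Adgre1 and Cd274). Of the 2 higher and the 2 lower markers, Alox15 alone passed with each library left out.

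Cell cycle and DNA replication genes were higher in CSF2ra-/- cells. Of 26 tested, 21 were higher and 0 lower, against 5.52% of all tested genes higher, with a median log2 fold change of 0.61 and all 26 above 0. Cdk1, the kinase that drives entry into mitosis, had 142, 113 and 95.3 CPM in CSF2ra-/- libraries, against 82.9, 60.8 and 60.9 CPM in WT libraries (log2 fold change 0.77 ± 0.15, adjusted p = 0.00388). Rrm2, a subunit of ribonucleotide reductase, had 222, 206 and 153 CPM in CSF2ra-/- libraries, against 134, 99.8 and 93 CPM in WT libraries (log2 fold change 0.83 ± 0.18, adjusted p = 0.00623), and Ube2c, which loads ubiquitin for the anaphase-promoting complex, had 145, 104 and 110.4 CPM in CSF2ra-/- libraries, against 85.7, 60.5 and 70.4 CPM in WT libraries (log2 fold change 0.73 ± 0.14, adjusted p = 0.00231). In these 3 genes the groups did not overlap, and WT replicate 1 was the highest WT library. The proliferation marker Mki67 had 326, 514 and 276 CPM in CSF2ra-/- libraries, against 344, 258 and 227 CPM in WT libraries (log2 fold change 0.43 ± 0.20, adjusted p = 0.163), and WT replicate 1 lay above 2 of the CSF2ra-/- libraries. Summed over the list, levels were 3590, 3523 and 2665 CPM in CSF2ra-/- libraries, against 2626, 2005 and 1938 CPM in WT libraries, so that CSF2ra-/- replicate 3 and WT replicate 1 nearly met.

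The cell cycle calls were less stable than the direction. They numbered 7 without CSF2ra-/- replicate 1 and 7 without WT replicate 2, 12 without WT replicate 3, 16 with the Y-linked covariate and 0 in the fit of the 6 libraries alone, while the median stayed between 0.52 and 0.77 over these alternatives and the other leave-one-out fits. Against WT replicate 1 alone edgeR called 0 and the median was 0.37. With each library left out in turn, 7 passed: Ccnb2, Cdk1, Aurka, Mcm7, Rrm2, Cdc20 and Ube2c. Of 22 ribosome biogenesis genes 6 were higher and 0 lower (median 0.44), led by the nucleolar protein Nop56 at 0.77 ± 0.15 (adjusted p = 0.00293), and that count was 1 without CSF2ra-/- replicate 1 or without WT replicate 2. Of 19 cholesterol and fatty acid synthesis genes 4 were higher and 0 lower (median 0.35), among them farnesyl diphosphate synthase (Fdps) at 0.75 ± 0.15 (adjusted p = 0.00463); the count was 1 without CSF2ra-/- replicate 1 or WT replicate 2 and 9 without CSF2ra-/- replicate 3.

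**Figure D3:**
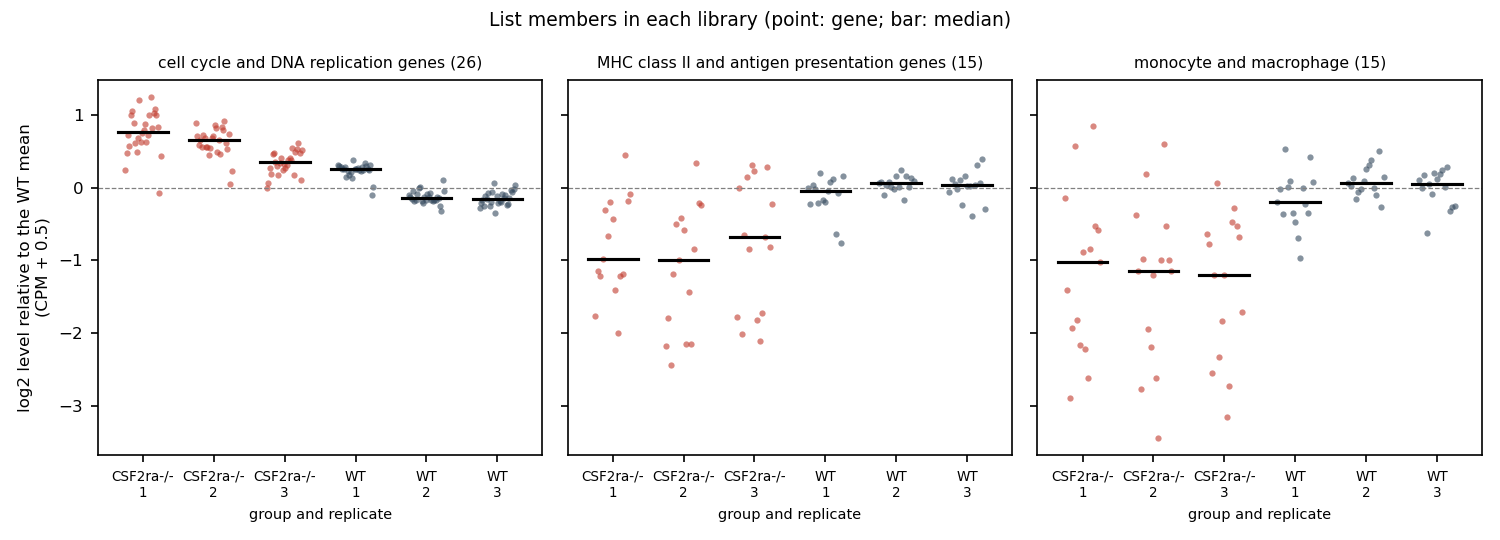
Level of each tested member of 3 lists in each untreated library, as log2 of CPM + 0.5 relative to the WT mean (vertical axis); points are genes, bars medians, CSF2ra-/- replicates on the left of each panel and WT replicates on the right. Cell cycle medians were 0.77, 0.655 and 0.349 in CSF2ra-/- and 0.253, -0.14 and -0.153 in WT, and the macrophage medians were -1.02 to -1.20 in CSF2ra-/- and -0.196 to 0.0662 in WT.

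Promoters of 2 of the 7 are shown because G2/M genes are known to carry repeated CCAAT boxes, bound by NF-Y, and a TTTGAA element (CHR) bound by the DREAM complex. The same 250 bases are printed, and capitals mark CCAAT and the element TTTGAA on either strand. Cdk1 lies at chr10:69352913-69353162, minus strand, and Ccnb2 at chr9:70421555-70421804, minus strand.
Cdk1: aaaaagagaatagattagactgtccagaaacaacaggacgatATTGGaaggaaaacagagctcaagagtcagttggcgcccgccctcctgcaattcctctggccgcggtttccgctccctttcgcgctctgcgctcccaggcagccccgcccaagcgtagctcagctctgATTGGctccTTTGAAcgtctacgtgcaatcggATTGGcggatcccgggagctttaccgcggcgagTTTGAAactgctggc
Ccnb2: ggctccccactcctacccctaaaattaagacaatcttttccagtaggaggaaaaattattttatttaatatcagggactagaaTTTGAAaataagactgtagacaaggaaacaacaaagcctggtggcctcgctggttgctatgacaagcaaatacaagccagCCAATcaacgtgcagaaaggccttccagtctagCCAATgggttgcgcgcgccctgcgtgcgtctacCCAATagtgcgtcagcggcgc
Cdk1 held 3 CCAAT and 2 TTTGAA matches, and Ccnb2 held 3 and 1. CCAAT on either strand was in 19 of 23 promoters of the cell cycle list (22 of its 26 genes had an entry), against 33.8% of all promoters, and in 3 of 15 promoters of the monocyte and macrophage list. TTTGAA was in 7 of 23 cell cycle and in 5 of 15 macrophage-list promoters, against 16.0% of all. The E2F sequence TTCCCGCC was in 1 of 23 and in 1.86% of all, and the PU.1 sequence GAGGAAGT was in 3 of 15 macrophage-list promoters and in 2.44% of all. The STAT5 sequence TTCNNNGAA was in at most 1 promoter of each of the 3 lists and in 7.02% of all. The AP-1 sequence, TGAGTCA in either orientation, was in at most 1 of each and in 4.46% of all, and the EGR1 sequence GCGGGGGCG in at most 1 of each and in 2.57% of all.

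**Figure D4:**
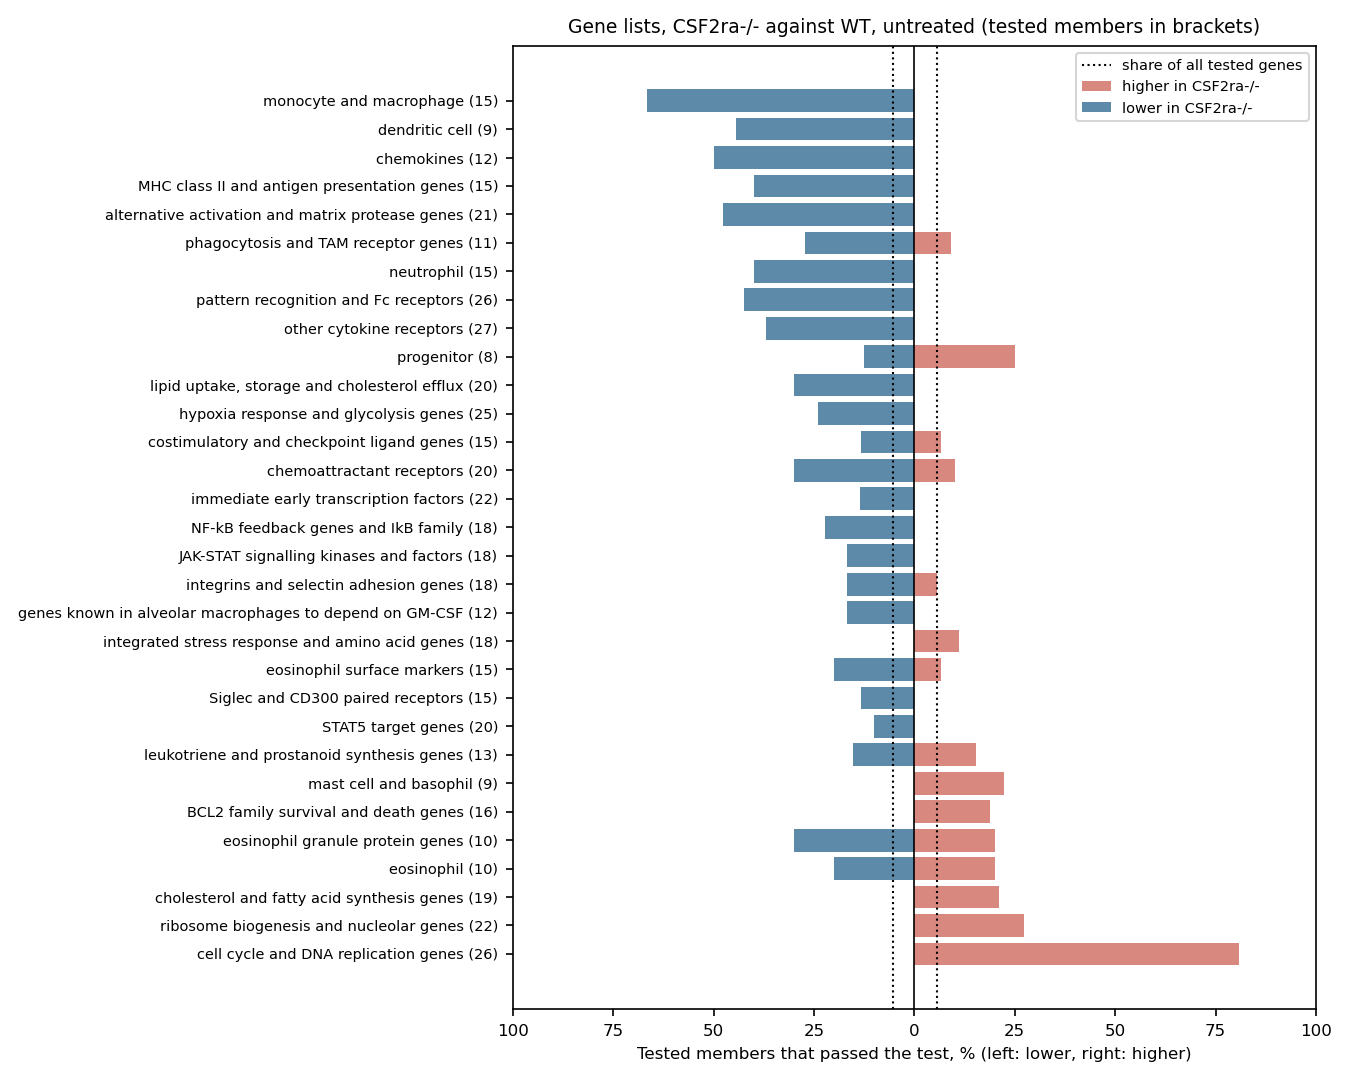
Share of the tested members of each list that passed the test in untreated cells (horizontal axis, percent), with higher in CSF2ra-/- to the right and lower to the left, for lists with at least 8 tested members and 2 calls. Dotted lines are the shares over all tested genes, 5.52% higher and 5.32% lower; macrophage markers (10 of 15 lower) and cell cycle genes (21 of 26 higher) are the longest bars.

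Markers of other cells that marrow cultures can hold changed in part, where 5.32% of all tested genes were lower and 5.52% higher. Neutrophil markers were lower in 6 of 15 and higher in 0 (median -0.59), and their summed level was 1724, 1381 and 1525 CPM in CSF2ra-/- libraries, against 2077, 1783 and 1993 CPM in WT libraries. The lower ones included the granule protein lactoferrin (Ltf) at -0.59 ± 0.13 (adjusted p = 0.00694) and lipocalin 2 (Lcn2) at -0.96 ± 0.27 (adjusted p = 0.028). The count was 3 without CSF2ra-/- replicate 1 or WT replicate 1. Dendritic cell markers were lower in 4 of 9 (median -1.20), H2-Aa among them, and in 1 without CSF2ra-/- replicate 1 or WT replicate 2. Of 9 mast cell and basophil markers 2 were higher (median 0.13), carboxypeptidase A3 (Cpa3) at 0.62 ± 0.16 (adjusted p = 0.0162) and histidine decarboxylase (Hdc) at 0.63 ± 0.18 (adjusted p = 0.0346). Neither call held with each library left out, and with 1 left out 0 to 2 were higher and 0 to 1 lower. The defining basophil protease Mcpt8 had 39.2, 23.7 and 29.9 CPM in CSF2ra-/-, against 30.4, 23.2 and 26.2 CPM in WT. Of 7 megakaryocyte and platelet markers 3 were lower, Pf4 at -2.48 ± 0.75 (adjusted p = 0.0411), Ppbp at -1.57 ± 0.33 (adjusted p = 0.00636) and Vwf at -2.25 ± 0.42 (adjusted p = 0.00222), and 1 was higher, the integrin Itga2b at 0.42 ± 0.10 (adjusted p = 0.0146), with a median of 0.15; with 1 library left out 2 or 3 were lower and 0 to 2 higher. Of 3 tested B cell and 4 tested stromal and endothelial markers edgeR, DESeq2 and limma-voom called 0, and 1 of these 7, Pecam1, had an unadjusted p under 0.05 (adjusted p = 0.125). The part that any such cells had in the gene groups above was not tested.

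Inflammatory and metabolic regulators were lower in part, and their counts moved with single libraries: with 1 library left out, lower NF-kB feedback genes numbered 1 to 7, immediate early factors 1 to 6 and hypoxia genes 0 to 9, and higher BCL2 family genes 1 to 5, the upper ends without CSF2ra-/- replicate 2 or 3. Of 18 NF-kB feedback genes 4 were lower and 0 higher (median -0.21), led by Tnip3, an inhibitor of NF-kB signalling, at 3.70, 1.83 and 2.01 CPM in CSF2ra-/- libraries, against 10.8, 8.78 and 10.1 CPM in WT libraries (log2 fold change -2.06 ± 0.28, adjusted p = 0.000146). Of 22 immediate early transcription factors 3 were lower (median -0.24), among them Klf4, a monocyte differentiation factor, at -2.18 ± 0.57 (adjusted p = 0.0192) and the stress factor Atf3 at -1.60 ± 0.26 (adjusted p = 0.000721). Of 25 hypoxia and glycolysis genes 6 were lower and 0 higher (median -0.31), including the glucose transporters Slc2a1 at -0.60 ± 0.18 (adjusted p = 0.0335) and Slc2a3 at -0.69 ± 0.22 (adjusted p = 0.0462), and none of the 6 passed with every library left out. The list counts in this paragraph stand beside 5.32% of all tested genes lower and 5.52% higher. Of 16 BCL2 family genes 3 were higher and 0 lower (median 0.23). They were the survival gene Bcl2a1a at 0.93 ± 0.18 (adjusted p = 0.00314), its near-identical copy Bcl2a1b at 0.63 ± 0.14 (adjusted p = 0.00895), between which reads may be shared, and the death gene Pmaip1 at 0.36 ± 0.11 (adjusted p = 0.039). Of 13 leukotriene and prostanoid genes 2 were higher, leukotriene C4 synthase (Ltc4s) at 1.12 ± 0.29 (adjusted p = 0.017) and leukotriene A4 hydrolase (Lta4h) at 0.31 ± 0.07 (adjusted p = 0.0116), and 2 lower, Alox15 and the prostaglandin D2 synthase Hpgds, at -1.69 ± 0.41 (adjusted p = 0.0141).

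By the naming rule, the genes with the largest changes were 15 that fell and 15 that rose. The falls included the endocytic adaptor Dab2, at 2.47, 1.18 and 1.66 CPM in CSF2ra-/- libraries, against 11.4, 18.9 and 17.4 CPM in WT libraries (log2 fold change -3.24 ± 0.75, adjusted p = 0.012). Tmem26, a membrane protein, had 0.617, 1.00 and 1.06 CPM in CSF2ra-/- libraries, against 5.23, 7.66 and 8.08 CPM in WT libraries (log2 fold change -2.88 ± 0.43, adjusted p = 0.000383), and the late endosomal GTPase Rab7b had 1.85, 0.707 and 1.12 CPM in CSF2ra-/- libraries, against 5.55, 6.72 and 6.28 CPM in WT libraries (log2 fold change -2.42 ± 0.27, adjusted p = 1.53e-05). The groups lay far apart in Rab7b, which had the smallest adjusted p of the 15 falls. F13a1, the A subunit of coagulation factor XIII, was at -2.80 ± 0.60 (adjusted p = 0.00748), Ms4a6d at -2.96 ± 0.61 (adjusted p = 0.00638), the TIFA-related protein Tifab at -2.65 ± 0.42 (adjusted p = 0.000689), the costimulatory receptor Cd28 at -2.48 ± 0.36 (adjusted p = 0.000265) and the membrane protein Emp1 at -2.43 ± 0.35 (adjusted p = 0.000265).

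Among the rises, 8 were annotated genes of the Ugt1a cluster, which encode UDP-glucuronosyltransferases and share exons, so that they are 1 signal counted 8 times and uncertain as single genes. Ugt1a8 stood at 108, 81.2 and 44.7 CPM in CSF2ra-/- libraries, against 27.1, 26.1 and 29 CPM in WT libraries (log2 fold change 1.5 ± 0.32, adjusted p = 0.00689), and CSF2ra-/- replicate 3 was the lowest of its group. All 8 lost their calls without CSF2ra-/- replicate 1 (adjusted p of 0.0518 to 0.0563). The carboxylesterase Ces2g had 20.8, 28.5 and 23.2 CPM in CSF2ra-/- libraries, against 7.64, 7.32 and 7.18 CPM in WT libraries (log2 fold change 1.72 ± 0.24, adjusted p = 0.000186). Wdfy1, a phosphoinositide-binding adaptor of Toll-like receptor signalling, had 53.9, 56.3 and 47.2 CPM in CSF2ra-/- libraries, against 20.3, 21.4 and 21.1 CPM in WT libraries (log2 fold change 1.33 ± 0.11, adjusted p = 4.09e-07), with little spread within either group. The adhesion receptor Adgrg6 at 1.83 ± 0.40 (adjusted p = 0.00711), the trafficking adaptor Tom1l1 at 1.43 ± 0.23 (adjusted p = 0.000763), Pdzph1 at 1.40 ± 0.33 (adjusted p = 0.0118) and the protease inhibitor Serpina3g at 1.28 ± 0.21 (adjusted p = 0.000765) were higher. The adult beta-globin gene Hbb-bt had 119, 57.7 and 74.8 CPM in CSF2ra-/- libraries, against 27.8, 18 and 23.7 CPM in WT libraries (log2 fold change 1.84 ± 0.23, adjusted p = 7.64e-05), 2 of 6 tested erythroid markers were higher, Hbb-bt and Hbb-bs, and reads of these near-identical globin genes may be shared.

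With GM-CSF present, CSF2ra-/- differed from WT at 451 genes (3.79% of those tested), 108 higher (0.909%) and 343 lower (2.89%), in libraries that share none with the untreated comparison. Called in both in the same direction were 257 genes, 64 higher and 193 lower, which is 20.0% of the untreated calls and 57.0% of the GM-CSF calls. In the opposite direction there was 1, Kif1a. That count of 257 was 144 without WT replicate 2 and 170 without WT replicate 3. Of the untreated calls 94.6% had the same sign with GM-CSF, and of all tested genes 70.0% did. The labels do not say whether the arms came from the same cultures, and all fits treat the libraries as unpaired. Deviations from the mean of all libraries correlated at 0.489, 0.725 and 0.82 between CSF2ra-/- GM-CSF and untreated libraries of the same number, and at 0.784 between GM-CSF replicate 1 and untreated replicate 2. These values include any genotype difference that the CSF2ra-/- libraries share. Deviations from the group mean do not, and correlated at 0.256, 0.499, 0.839 and 0.47 in the same pairs. In WT pairs of the same number they were 0.461, -0.155 and 0.524. Whether the 2 arms are independent was not tested.

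The gene lists stood as follows with GM-CSF. Of the 12 chemokine genes 10 were lower in CSF2ra-/- cells, with a median of -2.47, and of the 15 MHC class II and antigen presentation genes 8 were lower, with a median of -1.66. Macrophage markers were lower in 3 of 15, with a median of -0.85. Mrc1, C1qb and C1qc did not pass there (edgeR, adjusted p of 0.35, 0.161 and 0.188). Of the 26 cell cycle genes 1 was higher, with a median of 0.36. Whether these lists differed between the arms was not tested.

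Named genes differed in how they stood with GM-CSF. Ccr2 kept its difference, at 8.38, 5.87 and 6.28 CPM in CSF2ra-/- libraries with GM-CSF, against 34.6, 19.9 and 35.3 CPM in WT libraries with GM-CSF (log2 fold change -2.11 ± 0.27, adjusted p = 3.47e-05). H2-Aa did too, at 19.2, 11.9 and 19.7 CPM in CSF2ra-/- libraries with GM-CSF, against 93.7, 48.5 and 126 CPM in WT libraries with GM-CSF (log2 fold change -2.40 ± 0.43, adjusted p = 0.00212). For Igf1 the levels were 3.08, 2.33 and 2.36 CPM in CSF2ra-/- libraries with GM-CSF, against 3.49, 1.64 and 5.14 CPM in WT libraries with GM-CSF, and the groups overlapped (log2 fold change -0.36 ± 0.38). Cd28, at 1.95, 2.18 and 1.26 CPM in CSF2ra-/- libraries with GM-CSF, against 2.40, 1.70 and 2.32 CPM in WT libraries with GM-CSF, overlapped as well. A test of the difference between the 2 genotype effects, however, called 0 of the 30 named genes with edgeR and 3 with DESeq2, and 7 of all tested genes (0.0589%; 0.00841% higher and 0.0505% lower), with 692 at an unadjusted p under 0.05. Of those 7, 3 had passed in untreated cells: Ccl4, Clec4n and the kinesin gene Kif1a.

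**Figure D5:**
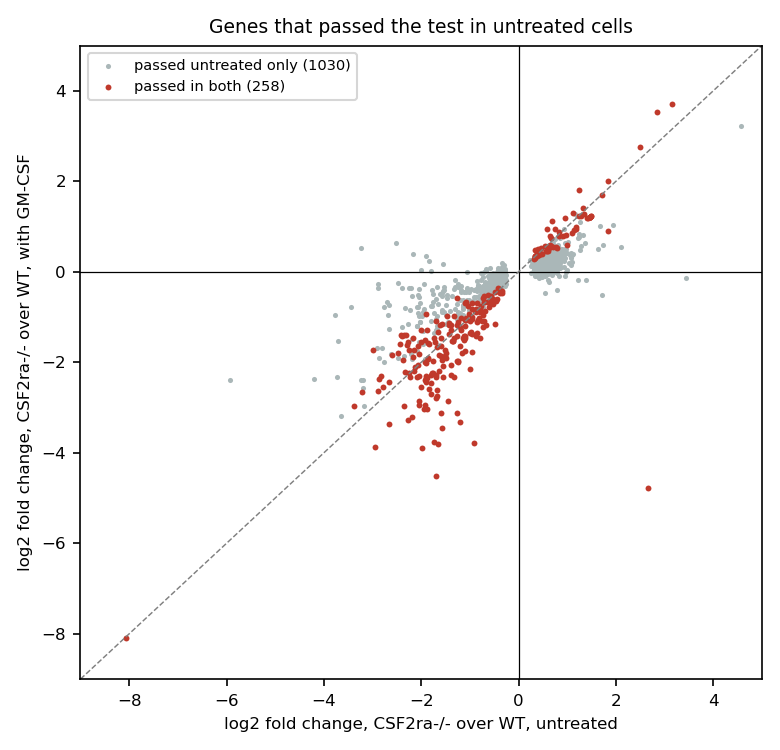
Log2 fold change of CSF2ra-/- over WT in untreated cells (horizontal axis) and with GM-CSF (vertical axis) for the 1288 genes that passed in untreated cells; red points also passed with GM-CSF, and the dashed line marks equal values. Of these genes 94.6% have the same sign in both, against 70.0% of all tested genes.

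Genes that respond to GM-CSF were picked from WT libraries with IL-10, which share no library with the untreated genotype comparison. GM-CSF changed 102 genes (0.858% of those tested) there. It raised 86 of them (0.724%) and lowered 16 (0.135%). Of the 86 raised, 19 were lower in untreated CSF2ra-/- cells, 6 were higher and 61 did not pass, with a median log2 fold change of -0.27. Of the 16 lowered, 14 were lower in untreated CSF2ra-/- cells as well and 0 higher, with a median of -1.61. Over all tested genes 5.32% were lower and 5.52% higher, and the median was 0.003. Among the raised genes the immune-metabolic enzyme Acod1 had 1.85, 2.89 and 1.42 CPM in CSF2ra-/- libraries, against 11.2, 5.51 and 3.51 CPM in WT libraries (log2 fold change -1.71 ± 0.41, adjusted p = 0.0125), and WT replicate 1 stood well above the other WT libraries. Among the lowered genes lysozyme (Lyz2), an enzyme of myeloid granules, had 120.4, 88.1 and 117 CPM in CSF2ra-/- libraries, against 292, 203 and 206 CPM in WT libraries (log2 fold change -1.11 ± 0.18, adjusted p = 0.000765), and the sugar-phosphate transporter Slc37a2 had 2.47, 4.30 and 2.78 CPM in CSF2ra-/- libraries, against 9.15, 15.5 and 14.7 CPM in WT libraries (log2 fold change -2.0 ± 0.30, adjusted p = 0.000376). The count over both sets, 39, was 21 in the fit of the 6 libraries alone and 16 against WT replicate 1 alone.

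Of 36 tested genes with a start within 10 Mb of Csf2ra on chromosome 19, 9 were lower and 2 higher, or 30.6%, against 10.8% of all tested genes. Zfp950, whose start lies 0.17 Mb away, had 13.8, 14 and 11.8 CPM in CSF2ra-/- libraries, against 23.7, 30.1 and 26.1 CPM in WT libraries (log2 fold change -1.01 ± 0.13, adjusted p = 9.35e-05), and Rab11fip2, an endosomal recycling adaptor, had 1.23, 2.59 and 0.887 CPM in CSF2ra-/- libraries, against 5.03, 5.25 and 4.64 CPM in WT libraries (log2 fold change -1.62 ± 0.29, adjusted p = 0.00184). The 11 calls became 3 without CSF2ra-/- replicate 1, 4 without WT replicate 2, 5 without WT replicate 3, 1 in the fit of the 6 libraries alone and 1 against WT replicate 1 alone. Against the same WT libraries, untreated libraries labelled Irf5-/- differed at 4 genes (0.0337% of those tested), 2 higher (0.0168%) and 2 lower (0.0168%), a count given side by side only because the controls are shared.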

How the data were processed

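Whole-number read counts per Ensembl gene, 1 file per library and 25746 genes, were deposited by the authors; the submitters' processing notes name STAR, featureCounts and the build GRCm38.p6, and libraries were stranded poly(A) preparations, per the labels. The sources used here state no tool versions, strand setting or handling of multi-mapping reads, so near-identical and overlapping genes are uncertain. Symbols came from GENCODE M21; 34 genes had none (0.0189% of counts).

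Counts of all 24 libraries were filtered with filterByExpr (11885 genes), TMM-scaled and fitted as 8 group means in edgeR 4.0.16 (R 4.3.3; robust quasi-likelihood F-test, Benjamini-Hochberg over all tested genes, common coefficient of variation 14.1%). A gene was called at adjusted p under 0.05. Fold changes are log2 CSF2ra-/- over WT ± SE; levels are TMM-scaled CPM, while Y-linked sums are CPM of totals. Alternatives used DESeq2 1.42.0, limma 3.58.1 voom, other scalings, filters, library sets and leaving out each library. Counts of untreated replicates differed beyond sampling noise. Chi-square per degree of freedom was 32.9 to 62.6 between CSF2ra-/- replicates and 6.77 to 15.5 between WT replicates. The main fit pooled the spread over the groups. If CSF2ra-/- libraries vary more than the pooled spread, its adjusted p-values are too small and its calls too many. The size of such an effect was not tested. The fits were also run on simulated data with the same spread in all genes and groups, which cannot test an unequal spread.

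Named genes were called, had non-overlapping libraries (21.1% of tested genes do), a mean of at least 5 CPM in the higher group and no predicted symbol; the 15 largest rises and falls were taken. Members and lists were chosen with earlier results of these data known. Replicate numbers follow accession order and were not used to pair libraries. Promoter sequences are RefSeq's (GRCm38.p6). A listed gene is not reported here by name.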

Additional observations from a re-analysis of the deposited data

Results flagged for a closer look

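For 3 genes called in untreated cells, the difference between CSF2ra-/- and WT itself differed with GM-CSF by edgeR's test of the difference. The genotype difference of Ccl4 changed by -2.87 log2 units with GM-CSF, and that of Clec4n by -2.82. Ccl4 had 3.40, 3.31 and 3.40 CPM in CSF2ra-/- libraries with GM-CSF, against 56, 41.6 and 41.9 CPM in WT libraries with GM-CSF. Without GM-CSF it had 3.82, 3.00 and 3.73 CPM in CSF2ra-/- libraries, against 8.95, 5.51 and 5.01 CPM in WT libraries. Clec4n had 1.68, 0.752 and 2.51 CPM in CSF2ra-/- libraries with GM-CSF, against 43.9, 32.9 and 36.9 CPM in WT libraries with GM-CSF, and without GM-CSF 1.48, 1.06 and 2.13 CPM in CSF2ra-/- libraries, against 7.78, 3.70 and 3.59 CPM in WT libraries. Kif1a changed by -7.43 log2 units: its untreated level was 0.247, 0.530 and 3.19 CPM in CSF2ra-/- libraries, against 0.392, 0.0861 and 0.150 CPM in WT libraries, a difference carried by CSF2ra-/- replicate 3, and with GM-CSF it was 0.0540, 0.0752 and 0 CPM in CSF2ra-/- libraries with GM-CSF, against 1.89, 0.932 and 1.52 CPM in WT libraries with GM-CSF.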

How the results depend on the processing

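No paired analysis was possible because the labels carry no replicate numbers. The count of 1288 genes stayed within 1.5-fold under RLE or upper-quartile scaling, either low-count filter, DESeq2 (1643), limma-voom (1026) and the non-robust fit. It was 764 with the Y-linked covariate, 359 in the 12 libraries without IL-10 or Irf5-/-, 353 in the 9 untreated libraries and 199 in the 6 libraries, and 291 to 2620 with 1 library left out. Under the same 4 alternatives, calls within 10 Mb of Csf2ra were 7, 3, 3 and 1 (main value 11; 3 to 12 with 1 library left out). The 257 genes called in both arms were 137 in the 12 libraries and 144 to 264 with 1 library left out; fits without GM-CSF libraries give no value. The GM-CSF-responsive count of 39 was 25 in the 9 libraries, 21 in the 6 and 26 to 43 with 1 left out. Differences between the 2 genotype effects numbered 0 among named genes, 3 with DESeq2 and 0 to 1 with 1 library left out. The causes of these shifts were not tested. Against the WT libraries of like Y-linked sum, an alternative chosen after the data had been seen, these counts were 91, 1, 58, 16 and 0 in the order given, and Csf2ra was at -0.718 and not called. Under the 17 others it stayed called (-0.71 to -0.95). Of the 30 named genes 10 kept their call under all 18 and 15 with each of the 6 libraries left out, and 0 reversed. Lower macrophage markers ranged from 3 to 8 and lower pattern receptors from 6 to 12 with 1 library left out. Depth limits the larger falls: genes lower by at least 2-fold had a median of 4.29 CPM in their higher group.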

Other observations

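Across both treatments, 157 genes (1.32% of those tested) had all 6 CSF2ra-/- libraries above or all 6 below the other 18 libraries, 56 of them higher and the rest lower. In untreated cells 141 were called. They were looked for after the data had been seen. Glrp1, a glutamine repeat protein gene on chromosome 1, had 0 counts in all 6 CSF2ra-/- libraries and 1.34 to 3.14 CPM in the other 18. In untreated cells WT held 97 counts, and against a floor of 3 counts over the CSF2ra-/- group the level was at least 33.7-fold higher in WT. Wdfy1, also on chromosome 1, had 47.2 to 56.3 CPM in the 6 and 16.2 to 22.4 CPM in the 18, and the N-acetylglucosaminyltransferase gene B3gnt7 had 68.3 to 94.0 CPM in the 6 and 28 to 49.1 CPM in the 18. D2hgdh, which oxidises 2-hydroxyglutarate, was at 5.80 to 9.25 CPM in the 6 and 11.9 to 16.7 CPM in the 18. D2hgdh, B3gnt7, Ap1s3 and Ano7, which separated in the same way, lie on chromosome 1 as well. With Glrp1 and Wdfy1 they lie in 1 stretch, from position 79606876 to 93852348. Its ends were set by the separating genes Ap1s3 and D2hgdh. Of 89 tested genes in the stretch 6 separated (6.74%). In untreated cells 22 of the 89 were called, the Ugt1a genes with shared exons among them. Ano7 was not called in untreated cells (edgeR, adjusted p = 0.15). Chromosome 1 held 19 separating genes of 690 tested (2.75%), against 15 of 574 on chromosome 6 (2.61%) and 1.32% of all tested genes. On chromosome 6, Rhno1, a DNA damage checkpoint gene, had 33.8 to 42.1 CPM in the 6 and 14.6 to 23.0 CPM in the 18. Of the 36 tested genes within 10 Mb of Csf2ra, 5 separated in this way. Causes of these patterns were not tested.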
